A study of Arabidopsis thaliana with 8 samples.

Results

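BZIP28 (AT3G10800) and BZIP60 (AT1G42990) encode the membrane-bound basic leucine zipper transcription factors at the head of the unfolded protein response in Arabidopsis thaliana. Their probe sets, 258759_at and 259626_at, are the 2 described here, of 22746 probe sets on the array after controls were left out, and were taken because the probe table names each by 1 gene. The levels come from fully expanded leaves of wild-type Columbia-0 plants that were 4 weeks old when treated and were harvested 4 days later. The groups were leaves of plants given 4 mM clothianidin, leaves of plants given 4 mM imidacloprid, leaves of plants given 4 mM salicylic acid, and untreated leaves. The first pair of compounds are insecticides of the neonicotinoid class, while salicylic acid is a hormone of plant defence. Each group had 2 arrays, 1 from each of 2 independent experiments. The labels name no solvent or mock treatment, so effects of the compound and of the act of treating cannot be told apart in comparisons with untreated leaves.

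When misfolded protein collects in the endoplasmic reticulum, BZIP28 leaves the reticulum for the Golgi, where site-1 and site-2 proteases cut it and free its DNA-binding part for the nucleus. BZIP60 is activated differently: the sensor IRE1 splices its mRNA outside the nucleus, and the spliced message encodes a protein without the membrane anchor. Both factors raise the genes of reticulum chaperones, of protein export and of reticulum-associated degradation, and the pathway also serves leaf immunity, in which many defence proteins are secreted. A probe set of this array reports the amount of transcript only, so neither the cutting of BZIP28 nor the splicing of BZIP60 was measured. Because whole leaves were extracted, fewer cells of a type and less transcript per cell cannot be told apart.

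The 8 arrays had means of the log2 values between 5.23 and 5.27, so their overall levels were alike. The salicylic acid replicates stood furthest apart: the SD of their difference over all probe sets was 1.14, against 0.76 for clothianidin, 0.70 for imidacloprid and 0.85 for untreated leaves. The 3′ minus 5′ difference of the actin control probe sets, which grows as RNA degrades, was highest on untreated replicate 2 at 2.17 and clothianidin replicate 2 at 1.75, and lay between 0.74 and 1.41 on the other 6 arrays. The measured leaf markers RCA, SBPASE and PORB lay between 8.96 and 14.37 on every array. All 3 were lower on both imidacloprid arrays than on both untreated arrays. PORB was at 9.76 and 8.96 with imidacloprid and 12.84 and 11.15 without treatment. SBPASE was at 10.53 and 9.85 with imidacloprid and 12.41 and 11.65 without treatment. RCA differed less, at 13.85 and 13.65 with imidacloprid and 14.29 and 13.96 without treatment. Of the root markers, EXPA7 did not exceed 2.01 on any array, while BGLU23 ranged between 2.61 and 9.09, with the highest value on salicylic acid replicate 1. No seed or flower marker of the list had a single-gene entry. With so few arrays, precision is limited by their number.

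BZIP28 was highest in imidacloprid leaves. Its log2 level was 7.95 and 7.35 on clothianidin replicates 1 and 2, 9.32 and 9.80 on the imidacloprid replicates, 7.37 and 8.38 on the salicylic acid replicates, and 7.36 and 7.85 on the untreated replicates. Both imidacloprid arrays lay above the other 6, and the clothianidin, salicylic acid and untreated arrays overlapped one another. Such a split was common on these arrays: both imidacloprid arrays exceeded the other 6 at 25.8% of all probe sets, and at 18.1% of those averaging at or above 2.49, the mean 25th percentile of the arrays, below which signal nears background. Group means of BZIP28 were 7.65 ± 0.42 with clothianidin, 9.56 ± 0.34 with imidacloprid, 7.88 ± 0.71 with salicylic acid and 7.61 ± 0.35 without treatment (SD, n = 2 each). In order of level, untreated, clothianidin and salicylic acid leaves followed one another by steps of 0.04 and 0.23, within the spread of their arrays, and a step of 1.68 led to imidacloprid.

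BZIP60 was high in imidacloprid leaves too, but also on single arrays of other treatments. It was measured at 9.53 and 8.44 on clothianidin replicates 1 and 2, at 10.02 and 10.09 on the imidacloprid replicates, at 8.07 and 10.24 on the salicylic acid replicates, and at 7.80 and 8.58 on the untreated replicates. The imidacloprid pair lay above both untreated and both clothianidin arrays, while salicylic acid replicate 2 held the highest value of all 8. Group means were 8.99 ± 0.77 with clothianidin, 10.06 ± 0.05 with imidacloprid, 9.15 ± 1.53 with salicylic acid and 8.19 ± 0.55 without treatment (SD, n = 2 each). The order of the means was that of BZIP28, but every neighbouring pair of groups overlapped, with steps of 0.80, 0.17 and 0.90.

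**Figure D1:**
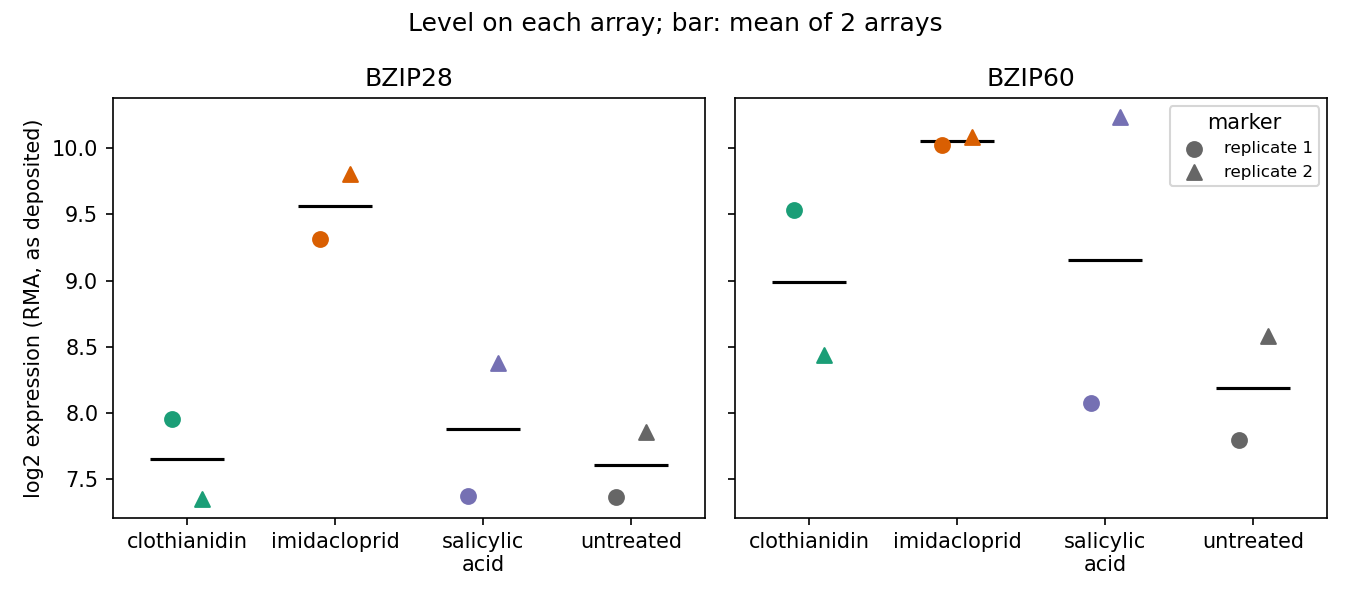
Log2 expression of BZIP28 (left) and BZIP60 (right) on each of the 8 arrays, by group; circles are replicate 1, triangles replicate 2, and bars the mean of the 2 arrays. Both imidacloprid arrays exceed the other 6 for BZIP28 (9.32 and 9.80), whereas for BZIP60 salicylic acid replicate 2 at 10.24 stands above the imidacloprid arrays.

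Over the 4 groups together, the limma F test gave BZIP28 an adjusted p of 0.357 and BZIP60 an adjusted p of 0.772. Neither passed the threshold of 0.05 on the Benjamini-Hochberg adjusted p, which 9 probe sets (0.0396%) passed, and an unadjusted p under 0.05 was reached by 10.9%, BZIP28 among them. The spread between replicate arrays was above the median of all probe sets for both genes. BZIP28 had a residual SD of 0.48 and BZIP60 one of 0.90, beside a median of 0.32 over all probe sets, and 66.7% and 88.1% of probe sets had a lower one than BZIP28 and BZIP60. That median and these shares include probe sets near background, and were not taken for the brighter ones alone.

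The first question was how the insecticide imidacloprid altered the 2 genes relative to untreated leaves. BZIP28 was 3.87-fold higher with imidacloprid, a log2 difference of 1.95 (SE 0.44, 95% confidence interval 0.80 to 3.11), and did not pass the threshold (limma adjusted p = 0.125). The background of this contrast was 0.312% of probe sets called at the adjusted threshold and 19.3% at an unadjusted p under 0.05, a group that included BZIP28. Of all 22746 probe sets, 1242 had a difference as high as that of BZIP28 or higher. Within replicate number 1 the gene differed by 1.96 and within number 2 by 1.95.

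BZIP60 was 3.65-fold higher with imidacloprid, a log2 difference of 1.87 (SE 0.83, 95% confidence interval -0.29 to 4.03), and also did not pass (limma adjusted p = 0.312), nor was its unadjusted p under 0.05. Its difference was 2.23 within number 1 and 1.51 within number 2, and 1313 probe sets reached it or exceeded it. For both genes the imidacloprid arrays stood clear of the untreated arrays, a property of 40.2% of all probe sets and of 34.0% of those averaging at or above 2.49. Without the 2 arrays of highest actin difference, untreated replicate 2 and clothianidin replicate 2, the differences were 2.198 for BZIP28 and 2.26 for BZIP60, so they were as large without those arrays. The lower levels of the leaf markers PORB, SBPASE and RCA with imidacloprid, given above, moved with these differences, and their part in them was not tested.

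Clothianidin was set against untreated leaves in the same way. BZIP28 had nearly equal means in both groups, with a log2 difference of 0.04 (SE 0.44, 95% confidence interval -1.11 to 1.20; limma adjusted p = 0.996). The interval still holds a doubling in either direction. The sign followed the array: 0.59 within number 1 and -0.50 within number 2, and -0.26 without clothianidin replicate 1. BZIP60 differed by 0.80 (SE 0.83, -1.36 to 2.96; limma adjusted p = 0.996), by 1.74 within number 1 and by -0.14 within number 2. Without clothianidin replicate 1 the BZIP60 difference was 0.25, and without clothianidin replicate 2 it was 1.35. In this contrast 0 probe sets were called at the adjusted threshold, and 2.63% had an unadjusted p under 0.05.

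Salicylic acid against untreated leaves asked whether the hormone alone moved the 2 genes. BZIP28 differed by 0.27 (SE 0.44, 95% confidence interval -0.88 to 1.42; limma adjusted p = 0.975), by 0.01 within number 1 and 0.53 within number 2. BZIP60 differed by 0.97 (SE 0.83, -1.19 to 3.12; limma adjusted p = 0.975), by 0.28 within number 1 and 1.66 within number 2. The higher BZIP60 mean therefore came from replicate 2: without it the difference was -0.12, and without replicate 1 it was 2.05. On the same array the leaf markers PORB and SBPASE were low, at 9.58 and 9.79, against 12.36 and 12.28 on salicylic acid replicate 1. RCA was lower there too, at 13.22 against 14.37. On the imidacloprid arrays PORB was at 9.76 and 8.96, SBPASE at 10.53 and 9.85, and RCA at 13.85 and 13.65. Their part in the BZIP60 value was not tested. Here too 0 probe sets were called, with 3.38% at an unadjusted p under 0.05.

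**Figure D2:**
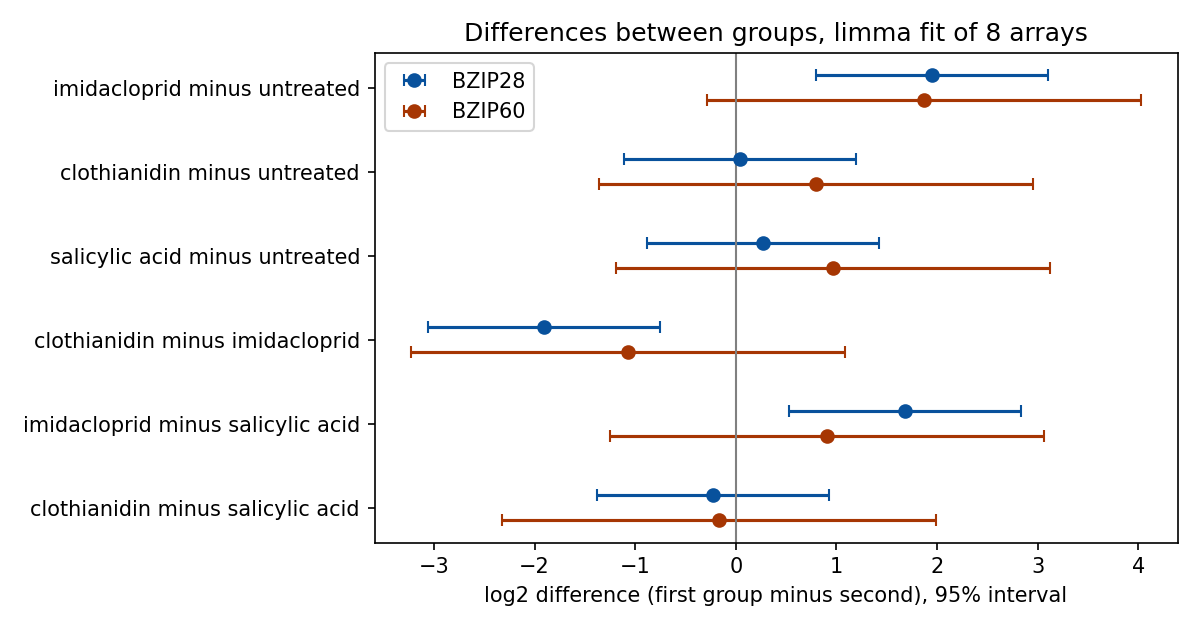
Log2 differences between groups for BZIP28 and BZIP60, first group minus second, with 95% confidence intervals from the limma fit of all 8 arrays. The intervals of BZIP28 exclude 0 in the 3 contrasts that involve imidacloprid (1.95, -1.91 and 1.68), and every interval of BZIP60 includes 0.

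Since dose and harvest time were matched, the neonicotinoids could be set against each other. In imidacloprid the nitroimine part is closed into a ring beside a chloropyridine, whereas clothianidin is open-chained and bears a chlorothiazole. BZIP28 was lower in clothianidin than in imidacloprid leaves by a log2 difference of -1.91 (SE 0.44, 95% confidence interval -3.06 to -0.76), which did not pass the adjusted threshold (limma adjusted p = 0.234), although its unadjusted p was under 0.05. It was lower within both numbers, by -1.37 and -2.45. BZIP60 gave a clothianidin minus imidacloprid difference of -1.07 (SE 0.83, -3.23 to 1.09; limma adjusted p = 0.579), with -0.49 within number 1 and -1.65 within number 2. The intervals leave room for equal levels of BZIP60 with both compounds and for a difference larger than that of BZIP28. In this contrast 0.0967% of probe sets were called, and 13.8% had an unadjusted p under 0.05. Both imidacloprid arrays lay above both clothianidin arrays for each gene, as at 43.9% of probe sets.

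Each insecticide was also set against salicylic acid. For imidacloprid minus salicylic acid, BZIP28 differed by 1.68 (SE 0.44, 95% confidence interval 0.53 to 2.84; limma adjusted p = 0.281), and both imidacloprid arrays lay above both salicylic acid arrays, as at 41.7% of probe sets. BZIP60 differed by 0.90 (SE 0.83, -1.26 to 3.06; limma adjusted p = 0.652), and the 2 numbers disagreed: 1.95 within number 1 and -0.15 within number 2. Called in this contrast were 0.0835% of probe sets, and 12.9% had an unadjusted p under 0.05, BZIP28 among them. Clothianidin minus salicylic acid gave -0.23 for BZIP28 (SE 0.44, -1.38 to 0.93) and -0.17 for BZIP60 (SE 0.83, -2.33 to 1.99), both with a limma adjusted p of 1.00, and the sign of each differed between number 1 (0.58 and 1.46) and number 2 (-1.03 and -1.80). In that contrast 0 probe sets were called and 1.22% had an unadjusted p under 0.05. The 6 contrasts draw on the same 4 groups, so their values are not independent of one another.

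**Figure D3:**
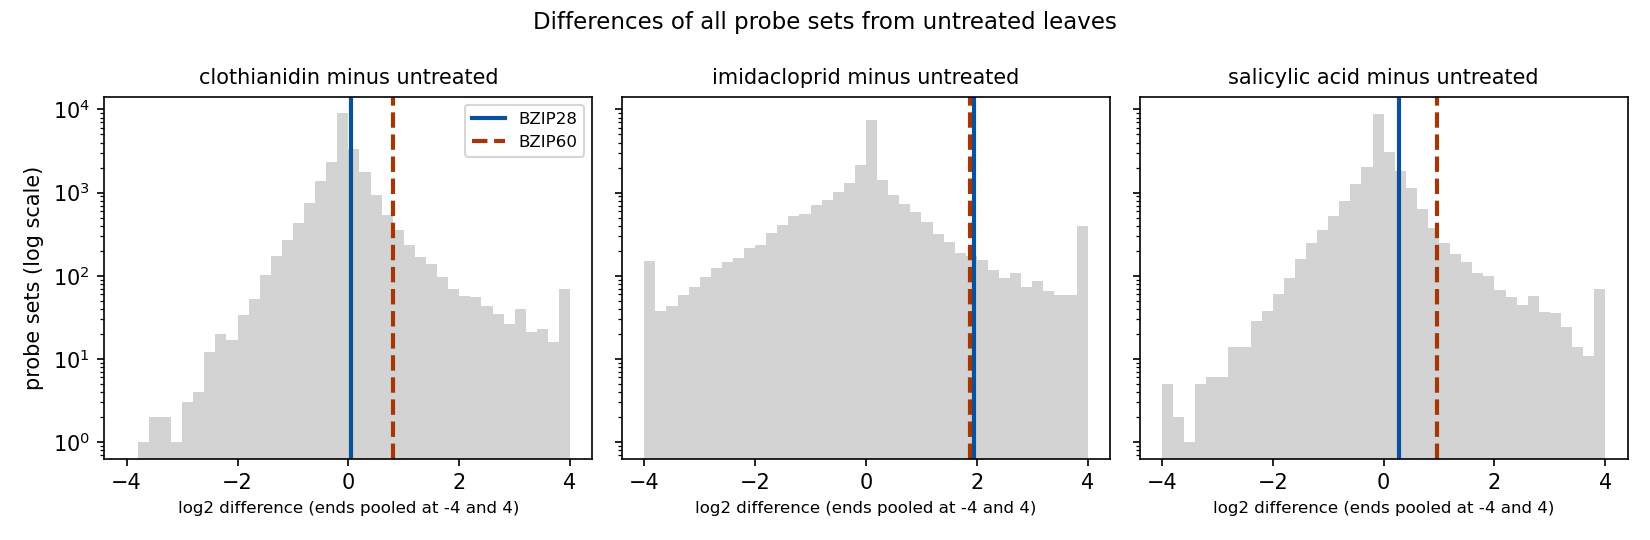
Distribution of the log2 differences of all 22746 probe sets for each treatment minus untreated leaves (count on a log axis; values beyond -4 and 4 are pooled in the end bins), with BZIP28 as a solid and BZIP60 as a dashed line. With imidacloprid both genes lie in the upper tail (1.95 and 1.87), where 1242 and 1313 probe sets are as high or higher. With clothianidin and salicylic acid BZIP28 lies near the centre at 0.04 and 0.27. BZIP60 lies in the upper tail with these too, at 0.80 and 0.97, where 1448 and 1257 probe sets are as high or higher.

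BZIP28 and BZIP60 varied together over the arrays. Pearson's r between them was 0.837 and Spearman's rho 0.857 over the 8 arrays, a description of points that share treatments and experiments. Over the 6 arrays without imidacloprid r was 0.934 and rho 0.829, so the relation was not only that of the imidacloprid arrays against the rest. Of those 6, salicylic acid replicate 2 held the highest level of both genes, 8.38 and 10.24. Many other genes were closer: among 4633 loci compared with BZIP28 over the 8 arrays, BZIP60 ranked 443rd by r. Within the clothianidin pair both genes were higher on replicate 1, by 0.60 for BZIP28 and 1.09 for BZIP60 (the replicate 2 minus 1 differences were -0.60 and -1.09). Within the salicylic acid pair both were higher on replicate 2, with replicate 2 minus 1 differences of 1.01 and 2.16.

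**Figure D4:**
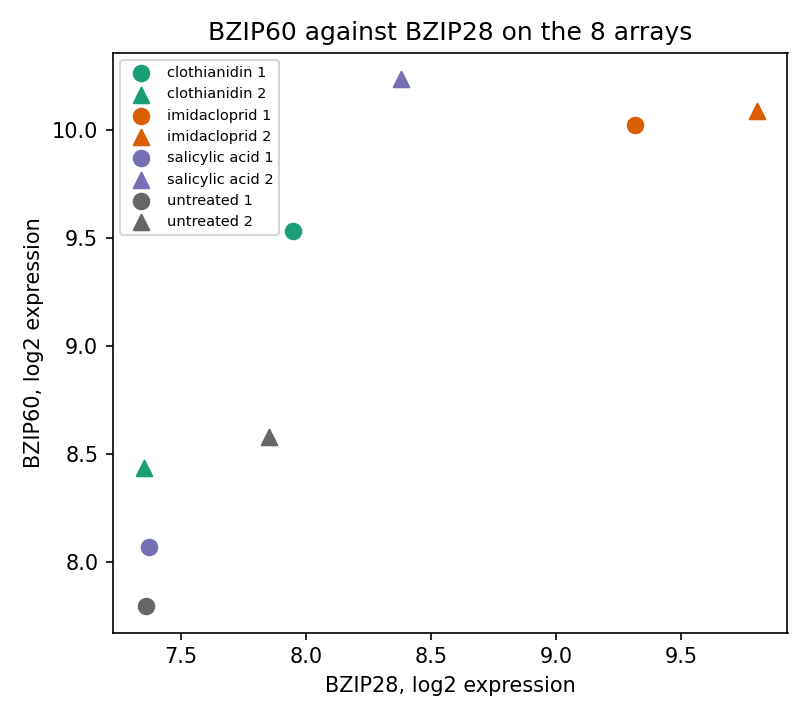
BZIP60 against BZIP28, both as log2 expression, with 1 point for each of the 8 arrays (circles replicate 1, triangles replicate 2). The points rise together (r = 0.837), with the imidacloprid arrays at the upper right and salicylic acid replicate 2 high for BZIP60 (10.24) but at 8.38 for BZIP28.

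The site-1 protease gene, the related factor BZIP17 and locus AT4G20310 had smaller estimates with imidacloprid than BZIP28 and BZIP60. Whether the genes differ from one another in this was not tested. Of 11 listed transcription factors and sensors, 5 had a single-gene probe set, the 2 genes above among them. BZIP17, a second membrane-bound factor that is cut in the Golgi, differed by 0.72 with imidacloprid (SE 0.88; limma adjusted p = 0.713) and its arrays overlapped with untreated ones, at 6.63 and 6.14 against 5.13 and 6.20. S1P, the site-1 protease gene, lay at 6.04 and 6.03 in imidacloprid leaves, against 5.93 and 6.13 in untreated leaves, a difference of 0.01. Locus AT4G20310 of the same list differed by -0.38 and was dim. It lay at 3.21 and 2.31 with imidacloprid, the latter near background, and at 3.10 and 3.19 in untreated leaves. IRE1A and IRE1B, which encode the kinase and nuclease that splices BZIP60, were not analysed here.

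Among the other measured reticulum genes, chaperone, degradation and translocon genes were mostly higher with imidacloprid, and none passed the adjusted threshold. Of 52 listed loci, 18 had a single-gene probe set, 16 besides BZIP28 and BZIP60, and 6 of the 18 are annotated by locus identifier only. No gene of disulfide formation (0 of 9 listed) was among them, nor were the BIP chaperone genes. With imidacloprid 14 of the 16 were above 0 relative to untreated leaves, beside 60.0% of all probe sets and 51.9% of those averaging at or above 2.49. Their median difference was 0.88, beside 0.02 over all probe sets. An unadjusted p under 0.05 in the upward direction was reached by 6 of the 16, beside 8.71% of all probe sets and 11.2% of the brighter ones. Counted in either direction, it was also 6, beside 19.3% of all probe sets. That count was 8 with only the arrays compared or with array weights, and 7 without dim probe sets or after median centring. It was 5 with a trended robust prior, with the replicate block or after a second quantile normalization. Leaving out any single untreated or imidacloprid array, or the 2 arrays of highest actin difference, gave fewer than 6. Both imidacloprid arrays exceeded both untreated arrays at 12 of the 16, beside 40.2% of all probe sets and 34.0% of the brighter ones.

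By role, all 6 measured degradation genes were above 0 with imidacloprid, with a median of 0.88. The shares above 0 were 60.0% of all probe sets and 51.9% of those averaging at or above 2.49. UBC32, a ubiquitin-conjugating enzyme of the reticulum membrane, had the smallest adjusted p of the 16: it lay at 8.49 and 9.41 in imidacloprid leaves and 7.05 and 7.03 in untreated leaves, a difference of 1.91 (SE 0.31; limma adjusted p = 0.0848). Its imidacloprid arrays stood clear of the untreated arrays. OS9, a lectin that picks out misfolded glycoproteins, differed by 0.95. The derlin genes DER1, DER2.1 and DER2.2, whose proteins belong to the export channel of that route, differed by 1.44, 0.67 and 0.16. For DER1 the SE was 0.95, and its untreated arrays lay at 6.42 and 4.92. Locus AT4G29960 of the degradation list differed by 0.81 (SE 0.17; limma adjusted p = 0.113).

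Among 4 measured chaperone genes of 15 listed, ATERDJ3B, a DNAJ partner of the lumenal HSP70, lay at 11.21 and 10.60 with imidacloprid and 9.35 and 8.88 without treatment, a difference of 1.79 (SE 0.67; limma adjusted p = 0.247). CRT1b, a calreticulin, differed by 1.16, with 10.63 and 10.35 in imidacloprid leaves, against 9.95 and 8.70 in untreated leaves. Locus AT5G07340 of the list differed by 1.35. ATERDJ2A, which encodes a DNAJ protein of the translocation machinery, differed by -0.02 and its arrays overlapped. The 3 measured loci of the translocon list, AT1G29310, AT2G34250 and AT3G48570, differed by 2.47, 1.02 and 0.78, and at each the imidacloprid arrays lay above the untreated ones, as at 40.2% of all probe sets.

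**Figure D5:**
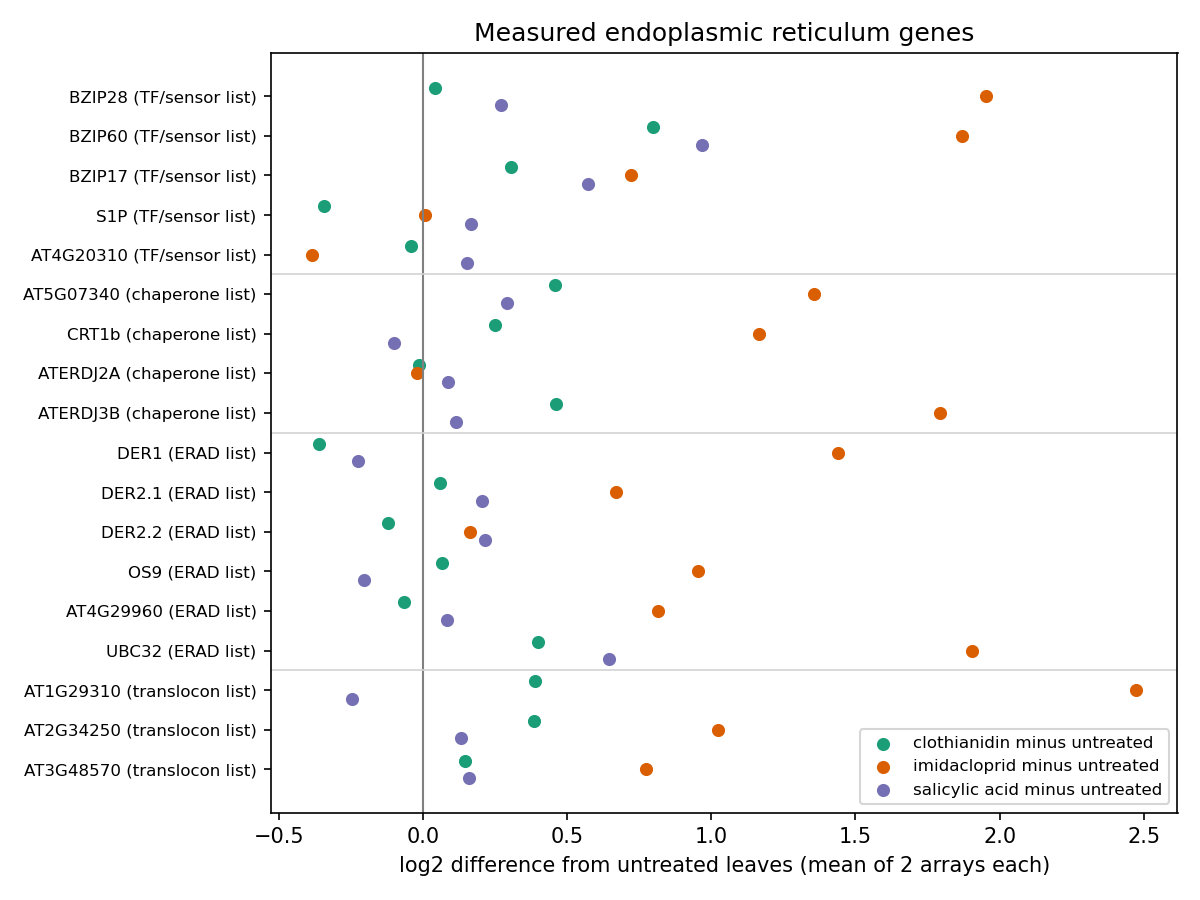
Log2 differences from untreated leaves for the 18 measured reticulum genes, grouped by list, with clothianidin, imidacloprid and salicylic acid as separate points (each the mean of 2 arrays minus the mean of 2 untreated arrays). With imidacloprid 14 of the 16 genes other than BZIP28 and BZIP60 are above 0 (median 0.88); with clothianidin and salicylic acid the 16 stay between -0.36 and 0.64.

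The same 16 genes had small differences with the other treatments. Clothianidin minus untreated had a median of 0.11 and a range of -0.36 to 0.46. Above 0 were 10 of 16, beside 35.5% of all probe sets. At an unadjusted limma p under 0.05 were 0 genes, beside 2.63% of all probe sets, and 1 with only the arrays compared. The shares in this paragraph cover all probe sets, those near background included, and were not taken for the brighter ones alone. For salicylic acid minus untreated the median was 0.14 and the range -0.25 to 0.64. Above 0 were 12 of 16, beside 36.1% of all probe sets. An unadjusted limma p under 0.05 was reached by 1 gene, DER2.2 at 0.21, beside 3.38% of all probe sets. That count was 0 with a trended robust prior, without dim probe sets, and after median centring or a second quantile normalization. With only the arrays compared it was 2. In the direct contrast of the insecticides, clothianidin minus imidacloprid, 2 of 16 were above 0, beside 38.7% of all probe sets. The other 14 of 16 were lower with clothianidin, as were 13938 of all 22746 probe sets. The median of the 16 was -0.76. An unadjusted limma p under 0.05 in the lower direction was reached by 4, beside 7.41% of all probe sets. In either direction that count was 8 without clothianidin replicate 1 and 2 without the 2 arrays of highest actin difference. For imidacloprid minus salicylic acid the median was 0.81 with 12 of 16 above 0, beside 60.8% of all probe sets. Within replicate number 1, 16 of 16 were above 0 for imidacloprid minus untreated (median 0.83), beside 61.7% of all probe sets, and within number 2, 12 of 16 (median 1.13), beside 54.5%. For salicylic acid minus untreated the numbers differed more, with 6 of 16 above 0 within number 1, beside 35.1% of all probe sets, and 13 of 16 within number 2, beside 36.3%. For clothianidin minus untreated 11 of 16 were above 0 within number 1, beside 55.9%, and 9 of 16 within number 2, beside 39.1%.

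Genes whose pattern was most like that of each factor were sought among single-gene loci with an SD over the 8 arrays of at least 0.5 times that of the factor. For BZIP28, among 4633 such loci, the 5 with the highest Pearson's r over the 8 arrays were AT2G04900 (0.992), AT1G04960 (0.991), AT2G03410 (0.984), AT4G32870 (0.984) and XTH29 (0.975), a gene of the xyloglucan endotransglucosylase/hydrolase family, which remodels cell wall polysaccharide. XTH29 averaged 2.14 with clothianidin, 5.19 with imidacloprid, 2.75 with salicylic acid and 2.08 in untreated leaves. In clothianidin and untreated leaves it was thus near background. AT2G03410 was near background too, averaging 2.41 in untreated leaves, with 2.44 on clothianidin replicate 2 and 2.45 on salicylic acid replicate 1. With r of at least 0.9 stood 202 loci, and BZIP60 ranked 443rd.

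For BZIP60, among 4384 loci, SGT1A came first (r = 0.990), followed by AT5G45000 (0.988), AT1G62840 (0.977), AT3G17410 (0.975) and AT1G32120 (0.971). AT1G32120 was near background on both untreated arrays (2.08 and 2.12), clothianidin replicate 2 (2.41) and salicylic acid replicate 1 (2.22). AT5G45000 was near background on untreated replicate 1, at 2.47. SGT1A encodes a co-chaperone of HSP90 that stabilises immune receptors. SGT1A had 9.22 and 8.40 on clothianidin replicates 1 and 2, 9.53 and 9.44 with imidacloprid, 7.995 and 9.80 with salicylic acid, and 8.05 and 8.47 in untreated leaves. Like BZIP60, it was highest on salicylic acid replicate 2 and higher on clothianidin replicate 1 than on replicate 2. As SGT1A was chosen by r over these same arrays, this likeness follows from the choice. There were 124 loci with r of at least 0.9, and BZIP28 ranked 357th. None of the 16 other measured reticulum genes was among the 5 nearest loci of either factor. That absence carries no weight, as only 5 of 4633 and of 4384 loci were taken. List genes with an SD under the limit, S1P among them, were not compared at all.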

How the data were processed

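The deposited log2 values per probe set were produced by the authors using RMA and affy, per the submitters' processing notes; versions, background correction and centring are not given in the sources used here. Of 22810 probe sets, 64 controls were dropped and 22746 tested. Of these 13513 carried 1 gene in the probe table, 13436 of which matched a TAIR10.1 locus, and 8730 had no entry. For a locus with several probe sets the one of highest mean was taken.

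Group means of all 8 arrays were estimated by lmFit and eBayes (limma 3.58.1, R 4.3.3; 4 residual degrees of freedom, prior 0.766) and contrasts were tested on both sides, with Benjamini-Hochberg adjustment over all probe sets and a threshold of 0.05. With 2 arrays against 2 the smallest exact two-sided permutation p is 0.333, so none was run. Replicates came from independent experiments, but no label ties a replicate number to an experiment. Replicate differences correlated between groups at -0.002 to 0.523. The correlation was above 0.1 for every pair except imidacloprid with untreated (0.055) and imidacloprid with salicylic acid (-0.002). The main fit had no block, and a block was fitted as an alternative. The fit was tested on simulated data. Alternatives comprised a trended robust prior, fits to only the contrasted arrays, replicate blocking, removal of dim probe sets, median centring, a second quantile normalization, array weights and omission of arrays.

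The genes, lists and alternatives were chosen with earlier results of these data known, so no list count is independent support. Named were BZIP28, BZIP60, measured list members, the 3 bZIP genes highest and the 3 lowest with imidacloprid, and the 5 loci most alike. Plots used matplotlib 3.10.9 (Python 3.11.15).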

Additional observations from a re-analysis of the deposited data

How the results depend on the processing

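No alternative brought BZIP28 or BZIP60 past the adjusted threshold in any of the 6 contrasts, and imidacloprid minus untreated was positive for both in all 16 alternatives. Its limma adjusted p ranged over them between 0.0776 and 0.380 for BZIP28 and between 0.141 and 0.727 for BZIP60. For clothianidin minus imidacloprid both genes stayed negative. With the replicate block, imidacloprid minus untreated was 1.95 for BZIP28 (limma adjusted p = 0.124) and 1.87 for BZIP60 (0.309); the block changed no call for the 2 genes. The sign of differences near 0 changed. BZIP28 for clothianidin minus untreated was -0.040 after median centring and -0.0018 after repeated quantile normalization, and ran from -0.26 to 0.34 when single arrays were left out. Without the 2 arrays of highest actin difference, clothianidin minus salicylic acid was 0.073 for BZIP28 and 0.38 for BZIP60; without single arrays it ran from -0.73 to 0.28 and from -1.25 to 0.91. Leaving out single arrays also gave -0.23 to 0.77 for BZIP28 and -0.12 to 2.05 for BZIP60 with salicylic acid minus untreated, and -0.18 to 1.98 for BZIP60 with imidacloprid minus salicylic acid. Why these moved was not tested beyond the arrays named.

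The number of probe sets called against untreated leaves with imidacloprid, 71, was 174 with only the arrays compared, 43 with the replicate block, 182 without dim probe sets, 189 after median centring, 353 with array weights and 0 without the 2 arrays of highest actin difference. For clothianidin minus imidacloprid, 22 became 37 with the trend and robust prior, 2 with the replicate block, and 0 with only the arrays compared and without the 2 arrays; for imidacloprid minus salicylic acid, 19 became 42, 3, 0 and 0 in that order. Leaving out single arrays gave 1 to 465 calls for imidacloprid, 0 to 72 for clothianidin and 0 to 82 for salicylic acid against untreated leaves, 1 to 279 between the insecticides, 1 to 276 for imidacloprid minus salicylic acid and 0 to 19 for clothianidin minus salicylic acid. For imidacloprid minus untreated the count was 348 and 188 without imidacloprid replicates 1 and 2, 465 without either salicylic acid array, 107 without either clothianidin array, and 1 and 173 without untreated replicates 1 and 2. Between the insecticides it was 1 without either untreated array, 279 and 157 without imidacloprid replicates 1 and 2, 36 and 8 without clothianidin replicates 1 and 2, and 14 without either salicylic acid array. For imidacloprid minus salicylic acid it was 276 and 158 without imidacloprid replicates 1 and 2, and 1 without either untreated array. Without untreated replicate 2, clothianidin had 72 calls and salicylic acid 82, and without salicylic acid replicate 1 salicylic acid had 37. Median centring moved the median of all probe sets by -0.16 for clothianidin minus imidacloprid and by 0.14 for imidacloprid minus salicylic acid; BZIP28 then differed by -2.07 and 1.82. The cause of these moves was not tested. With an array left out, the lone array of a group is taken to vary like the others.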

Other observations

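The wider bZIP family had 22 measured loci whose symbol or synonym starts with BZIP or ATBZIP. Besides BZIP28 and BZIP60, the other 20 had a median log2 difference of 0.03 for imidacloprid minus untreated leaves, beside 0.02 over all probe sets, with 13 above 0, beside 60.0% of all probe sets. Both imidacloprid arrays lay above both untreated arrays at 7 of the 20, beside 40.2%. With limma 0 of them were called at the adjusted threshold, beside 0.312%, and 1 had an unadjusted p under 0.05, beside 19.3%. That one was BZIP53, a factor known from seed maturation and proline metabolism, at 11.67 and 11.98 with imidacloprid and 9.56 and 10.88 without treatment, a difference of 1.61 (SE 0.47; limma adjusted p = 0.177). BZIP24 differed by 1.00 and AT2G40620 by 0.76. At the other end BZIP61 differed by -4.36 (limma adjusted p = 0.405), BZIP34 by -1.65 and bZIP52 by -0.53. BZIP34 (SE 1.18) lay at 5.33 and 2.60 in untreated leaves and 2.49 and 2.13 with imidacloprid. Its difference thus came largely from untreated replicate 1. bZIP52 was near background in both groups, at 2.76 and 2.64 in untreated leaves and 2.18 and 2.17 with imidacloprid. BZIP61 was at 8.42 and 3.30 on the clothianidin arrays, 2.96 and 4.79 on the imidacloprid arrays, 7.85 and 2.89 on the salicylic acid arrays and 8.73 and 7.74 on the untreated arrays. Replicate 2 of clothianidin and of salicylic acid lay at imidacloprid levels and replicate 1 of each at untreated levels. Of the 22 loci, 7 averaged under 2.49, near background.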
